A study of Xenopus laevis with 46 samples.

Results

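The genes described here are 3 groups of forkhead transcription factors, *foxd3*, *foxd4l1* and *foxb1*, in explants of the *Xenopus laevis* blastula. *X. laevis* is allotetraploid, and most of its genes are kept as a pair of homeologs on the long (.L) and short (.S) subgenomes. The members were taken by name: every row of the count tables called *foxd3*, *foxd4l1.1*, *foxd4l1.2* or *foxb1* with either suffix, which gave 7 of 49281 gene rows (*foxd3.L*, *foxd3.S*, *foxd4l1.1.L*, *foxd4l1.1.S*, *foxd4l1.2.L*, *foxb1.L* and *foxb1.S*).

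Forkhead factors bind DNA through a winged-helix domain. Foxd3 is a neural crest regulator, required for the crest to keep its range of fates, and it is also made in the cells of the early frog embryo before they choose a lineage. Foxd4l1, known in *Xenopus* as Foxd5, is expressed in the newly formed neural ectoderm, where it holds cells in an immature state and acts on *gmnn*, *sox11* and *zic2*. Foxb1 is a transcription factor of the posterior neural ectoderm. In the animal pole explant, the pluripotent cells of the blastula become epidermis when cultured alone.

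RNA sequencing was made on 46 libraries of wild-type animal pole explants in 18 groups. In the first experiment, with 2 libraries a group, explants were treated from the 2-cell stage with vehicle (DMSO) or IBET (IBET762, an inhibitor of the acetyl-lysine-binding BET proteins), or with vehicle or TSA (trichostatin A, an inhibitor of histone deacetylases, HDACs), and collected at stage 9 (blastula) and stage 13 (early neurula). In the second, with 3 libraries a group, explants were uninjected or came from embryos injected with *wnt8a* and *chordin* mRNA (Wnt/Chrd), which together direct animal pole cells towards neural crest. These were collected untreated at stage 9, and at stages 13 and 17 (late neurula) after vehicle or IBET from stage 9. The libraries of a group are named a, b and c by the letters in the count tables, and nothing in the labels says that they came from separate clutches or cultures, so the p-values below measure the spread between these libraries, which may be technical.

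Each library held between 12902520 and 32022992 reads in genes. Levels are counts per 1000000 of these reads (CPM). Since they are not corrected for gene length, levels of different genes are not compared. Reads were counted where they fell in 1 gene at 1 place only, and 8.97 to 23.55% of reads in a library aligned to more than 1 place, so a level of 1 homeolog, or of *foxd4l1.1* against *foxd4l1.2*, is uncertain where the copies are alike in sequence. These are bulk libraries, in which fewer cells of a type and less RNA per cell cannot be told apart. The injected mRNA was seen directly: *wnt8a.L* stood at 2714, 3615 and 4126 CPM in the stage 9 Wnt/Chrd libraries and at 0.141 to 0.28 CPM in the uninjected ones.

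Each comparison was fitted across all genes that passed a filter on low counts (edgeR's quasi-likelihood test), and a gene was called at a Benjamini-Hochberg adjusted p under 0.05. Fold changes are log2 values with their standard error (SE). Where a group held 1 to 3 reads of a gene in all, the ratio of CPM over the groups is given with its exact 95% counting interval, and where it held none, the fold is a lower bound set at 3 reads over the group. Intervals and bounds cover counting error only. These ratios and bounds rest on library totals, whereas the edgeR fold changes and adjusted p use TMM scaling. From TMM scaling to library totals, the median log2 fold change of all genes moved from 0.12 to 0.71 for TSA at stage 13. For stage 13 against 9 it was between -0.65 and -0.94 on library totals. Rises in the first and falls in the second thus read larger as ratios. The members chosen are few, so each count of calls is set beside the percentage of all tested genes called in the same comparison.

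The 7 genes fell into 3 patterns over the 18 groups. Both *foxd3* copies were highest in Wnt/Chrd explants at stage 17 with vehicle, at 112 ± 90.0 CPM for *foxd3.L* and 94.4 ± 49.1 CPM for *foxd3.S* (SD, n = 3), and no library of the next group in order reached these. Both *foxb1* copies were highest in the same explants with IBET in place of vehicle, at 53.5 ± 15.5 and 13.8 ± 3.8 CPM (SD, n = 3), again without overlap with the next group. The *foxd4l1* genes were highest at stage 9. *foxd4l1.1.L* stood at 31.7, 28.5 and 24.7 CPM on average in the TSA, TSA vehicle and IBET vehicle groups, whose ranges overlap, and *foxd4l1.1.S* and *foxd4l1.2.L* were highest in the same vehicle groups.

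**Figure D1:**
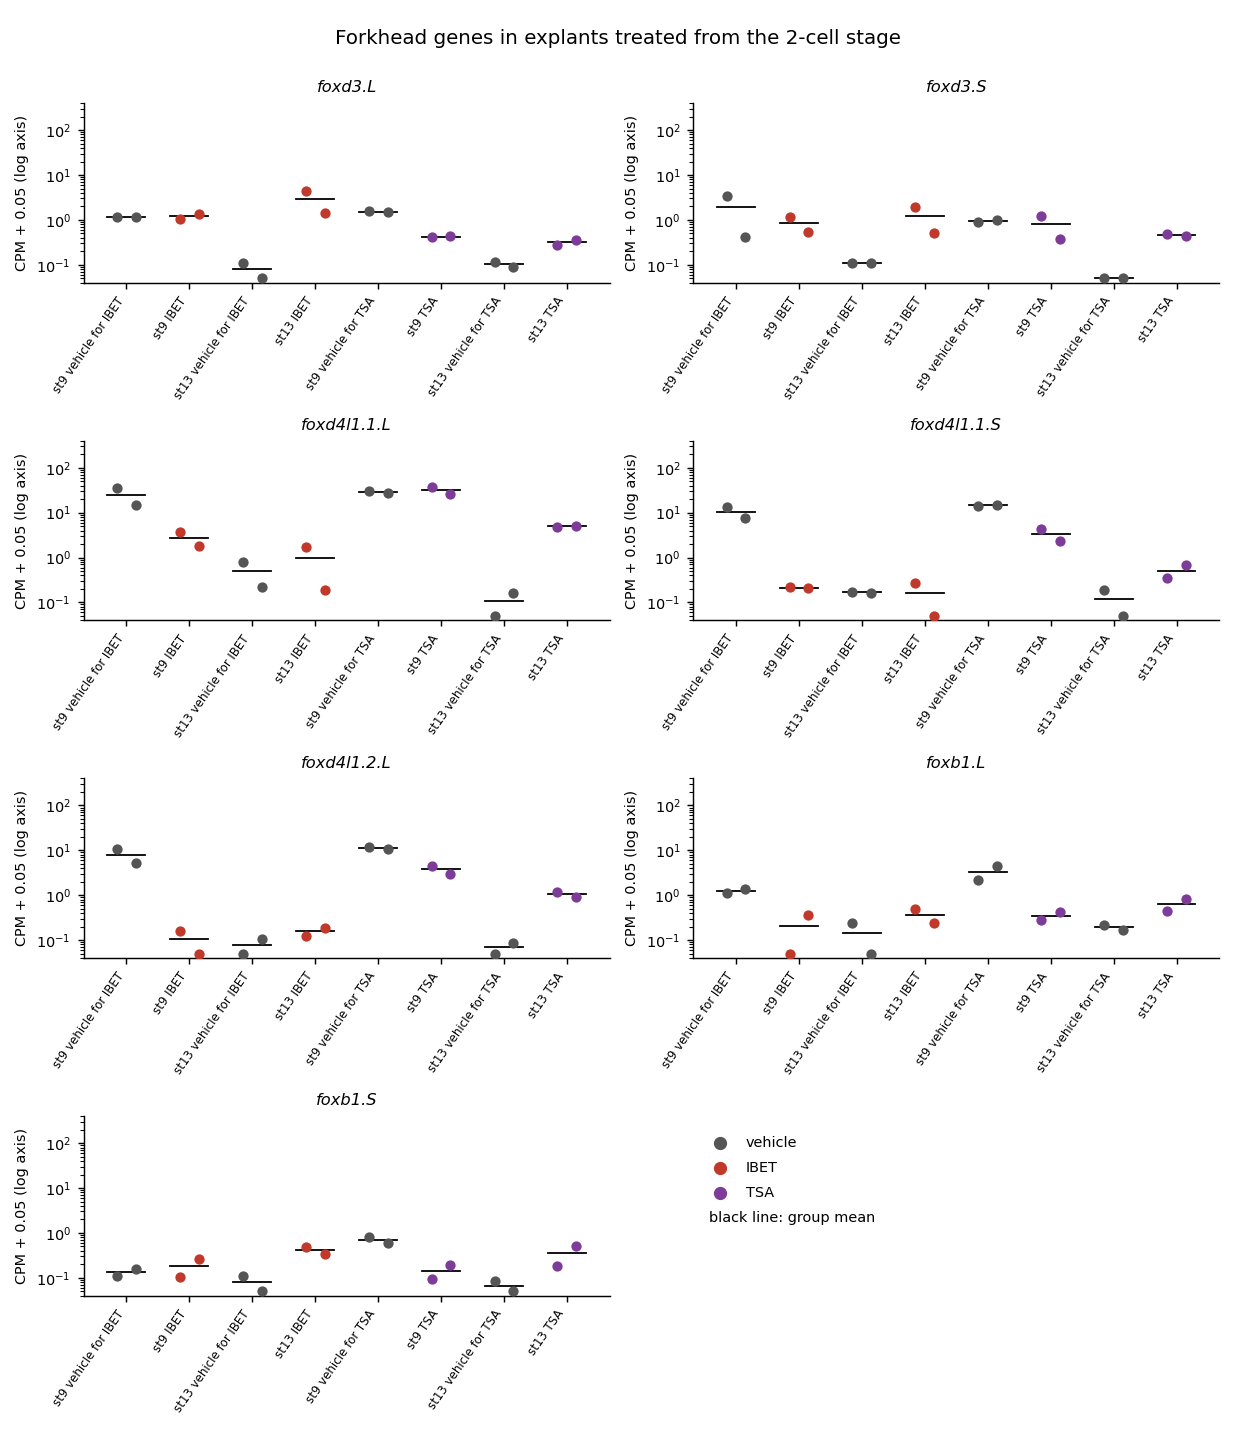
Levels of the 7 forkhead genes in the explants treated from the 2-cell stage, in CPM plus 0.05 on a log axis, 1 panel a gene. Each point is a library, coloured by vehicle (grey), IBET (red) or TSA (purple), and black lines mark group means. The *foxd4l1* genes are high at stage 9 with vehicle and near 0 at stage 13, and *foxd4l1.1.L* at stage 13 with TSA (4.69 and 5.12 CPM) sits above its vehicle libraries.

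The first question was what becomes of the 3 groups of genes as the explant leaves the blastula stage with no inhibitor. All of the tested members fell. In the vehicle libraries of the IBET experiment, *foxd4l1.1.L* went from 34.7 and 14.7 CPM at stage 9 to 0.745 and 0.174 CPM at stage 13. *foxd4l1.1.S* went from 13.5 and 7.59 to 0.124 and 0.116 CPM. *foxd4l1.2.L* went from 10.8 and 5.08 to 0 and 0.058 CPM. No stage 13 library came near a stage 9 library for any of the 3. The falls were 5.15 on the log2 scale for *foxd4l1.1.L* (log2 fold change -5.15, SE 0.65, adjusted p = 0.000347), -5.79 for *foxd4l1.1.S* (SE 0.56, adjusted p = 0.000101) and 259-fold for *foxd4l1.2.L* (interval 46.1 to 10268, adjusted p = 0.000281).

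*foxd3.L* in the same libraries went from 1.09 and 1.12 CPM to 0.0621 and 0 CPM, 37.0-fold lower (6.26 to 1499, adjusted p = 0.0034). *foxb1.L* went from 1.09 and 1.34 CPM to 0.186 and 0 CPM, 13.6-fold lower (4.35 to 68.5, adjusted p = 0.0165), a call that was lost without vehicle library b of stage 9 (adjusted p = 0.076) or of stage 13 (0.094). In all, 5 of the 5 members tested fell, where 73.6% of all genes tested were called. In the vehicle libraries of the TSA experiment, 7 of 7 fell, against 78.0% of all genes. There *foxd4l1.1.L* went from 30.3 and 26.8 CPM to 0 and 0.115 CPM, 529-fold lower (181 to 2570, adjusted p = 4.54e-06). *foxd3.S* went from 0.855 and 0.956 CPM to no read in either library, at least 16.9-fold lower (adjusted p = 0.00099), and *foxb1.L* from 2.11 and 4.53 to 0.168 and 0.115 CPM (log2 fold change -3.77, SE 0.59, adjusted p = 0.000688). These percentages count calls in either direction. In the IBET vehicle 8144 of 21902 genes were lower and 7972 higher, and in the TSA vehicle 9050 of 23183 were lower and 9043 higher. A call is thus the common case between these stages, with falls about as frequent as rises. The tested members held at most 15 reads in all at stage 13 and passed the filter through stage 9, so a rise could hardly be called. The members are few and were chosen by name, so their shares are a description.

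In the uninjected explants of the second experiment only *foxd4l1.1.L* passed the filter between the same stages, at 7.51, 2.31 and 4.17 CPM at stage 9 and 0.0386, 0 and 0.0531 CPM at stage 13. It was 154-fold lower (42.3 to 1274, adjusted p = 0.000429), where 71.3% of genes were called and 7746 of 21871 were called lower. It held 2 reads in all at stage 13 and passed the filter through stage 9, so a rise could hardly be called. At stage 9 the uninjected libraries held less of all 3 *foxd4l1* genes than the vehicle libraries above: *foxd4l1.1.S* stood at 0.629, 0.0625 and 0 CPM there and at 7.59 to 14.9 CPM in the 4 vehicle libraries. The experiments were made apart and this difference was not tested.

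IBET from the 2-cell stage lowered *foxd4l1.1.S* and *foxd4l1.2.L* at stage 9, and *foxd3* did not pass the test. *foxd4l1.1.S* was at 0.17 and 0.159 CPM with IBET, against 13.5 and 7.59 CPM with vehicle (log2 fold change -5.99, SE 0.48, adjusted p = 0.0119). *foxd4l1.2.L* was at 0.113 and 0 CPM, against 10.8 and 5.08 CPM, 142-fold lower (39.0 to 1179, adjusted p = 0.0311). The groups are far apart for both. *foxd4l1.1.L* was at 3.62 and 1.75 CPM, against 34.7 and 14.7 CPM, with no overlap, and missed the threshold (log2 fold change -3.25, SE 0.56, adjusted p = 0.067), while DESeq2 gave an adjusted p of 1.38e-08. Without vehicle library a or b it was called (0.0167 and 0.000736).

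*foxb1.L*, at 0 and 0.317 CPM against 1.09 and 1.34 CPM, was not called either (log2 fold change -2.9, SE 1.05, adjusted p = 0.442). *foxd3.L* had 1.02 and 1.32 CPM with IBET and 1.09 and 1.12 CPM with vehicle, a difference of 0.04 on the log2 scale (SE 0.4, adjusted p = 1.0). *foxd3.S* had 1.13 and 0.476 CPM against 3.41 and 0.374 CPM, with vehicle library a above the other 3, and the groups overlap (log2 fold change -1.26, SE 1.06, adjusted p = 1.0). So 2 of the 6 members tested were called, both lower, where 2.37% of all genes were called. With each IBET library set against the vehicle library of its letter, more members were called, as were 2526 of 20978 genes in place of 498. In the same libraries, of a list of 31 copies of neural ectoderm genes 20 were tested and 14 fell, with a median log2 fold change of -1.99 against 0.01 over all genes. Among them were *irx1.S* (-5.32, adjusted p = 0.00362) and *sox2.L* (-3.28, adjusted p = 0.00906), both of which encode transcription factors of the early neural plate.

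TSA over the same time gave no call among the 7 members at stage 9 with edgeR, where 2.02% of genes were called. At an unadjusted p under 0.05 there were 5, and DESeq2 called 3. With each TSA library set against the vehicle library of its letter, 5 were called, as were 2981 of 22067 genes in place of 446. *foxd4l1.1.L* stood at 37.2 and 26.2 CPM, against 30.3 and 26.8 CPM with vehicle (log2 fold change 0.13, SE 0.2, adjusted p = 1.0). *foxd4l1.1.S* stood at 4.19 and 2.25 CPM against 14.3 and 14.9 CPM, with no overlap (log2 fold change -2.2, SE 0.33, adjusted p = 0.0504). The copies of 1 gene thus had unlike values, 1 near its vehicle level and 1 below it in both libraries. *foxd4l1.2.L*, at 4.46 and 2.96 against 11.7 and 10.5 CPM (adjusted p = 0.0669), *foxb1.L*, at 0.225 and 0.376 against 2.11 and 4.53 CPM (adjusted p = 0.0636), and *foxd3.L*, at 0.361 and 0.376 against 1.54 and 1.41 CPM (adjusted p = 0.12), were also below vehicle in both libraries without passing the threshold. *foxd4l1.1.S* was called without vehicle library a (0.0447) or TSA library a or b (0.00295 and 0.0121), *foxd4l1.2.L* without TSA library a (0.0155) and *foxb1.L* without vehicle library a (0.0214) or TSA library b (0.0378).

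At stage 9 the effects of IBET and TSA, each against its own vehicle, were not called different for any of the 7 members with edgeR, where 0.963% of genes were. The unadjusted p was under 0.05 for 5 of them and DESeq2 called 3. *foxd4l1.1.L* had a mean of 2.68 CPM with IBET and 31.7 CPM with TSA.

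At stage 13 the inhibited explants held more of some members than their vehicle. *foxd3.L* was at 4.32 and 1.4 CPM with IBET against 0.0621 and 0 CPM with vehicle, 84.5-fold higher (14.8 to 3376, adjusted p = 0.00318). These are 59 and 30 reads against 1 and 0. The copy thus passed the filter through the IBET libraries and could only be called higher. *foxd4l1.1.L* was the other member tested, at 1.68 and 0.14 CPM against 0.745 and 0.174 CPM, and its groups overlap (log2 fold change 0.79, SE 1.11, adjusted p = 0.562). The background in this comparison was 56.7% of genes called, with 5987 of 21842 called higher. Copies under the filter were *foxd3.S*, at 1.9 and 0.466 CPM against 0.0621 and 0.058 CPM, a ratio of 17.1 (4.4 to 147), and *foxb1.S*, at 0.439 and 0.28 CPM against 0.0621 and 0 CPM, a ratio of 11.4 (1.69 to 487). Both stood above vehicle in each library and were not tested. The other 3 copies under the filter had intervals that include no change: *foxb1.L* a ratio of 3.17 (0.815 to 17.9), *foxd4l1.2.L* 3.8 (0.376 to 187) and, in the lower direction, *foxd4l1.1.S* 1.4 (0.237 to 9.58). Markers of another germ layer moved with this comparison: *tbxt.L*, the mesodermal brachyury gene, was at 25.6 and 22.4 CPM in the vehicle libraries, against 0.0732 and 0.0466 CPM after IBET. A list of 11 mesoderm marker copies summed to 76.1 to 91.2 CPM with vehicle and 24.5 to 27.2 CPM with IBET. The high group was this vehicle: the same list summed to 2.09 to 2.71 CPM in the stage 13 TSA vehicle and 0.531 to 1.43 CPM in the stage 13 uninjected vehicle. The stage 13 IBET vehicle also enters the comparisons of stage 13 against 9 and of IBET with TSA. Other lists moved too. Neural plate copies summed to 158 to 267 CPM with vehicle and 1803 to 1916 CPM with IBET. Epidermal copies summed to 13837 to 16510 and 3655 to 4151 CPM, and neural crest copies to 24.2 to 39.6 and 118 to 166 CPM. Their part in the result was not tested.

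With TSA at stage 13 all 7 members stood above vehicle in both libraries, and the 2 that passed the filter were *foxd4l1* genes. CPM and the ratios here rest on library totals. On that scale the median log2 fold change of all genes was 0.71, with 13044 of 24707 called higher and 5881 lower. Standing above vehicle was thus frequent among all genes. *foxd4l1.1.L* stood at 4.69 and 5.12 CPM against 0 and 0.115 CPM, 90.2-fold higher (30.4 to 442, adjusted p = 0.000112). *foxd4l1.2.L* stood at 1.14 and 0.853 CPM against 0 and 0.0382 CPM, 57.9-fold higher (9.77 to 2348, adjusted p = 0.0011). Both copies tested were called, where 72.7% of genes were. Vehicle held 3 reads of *foxd4l1.1.L* and 1 of *foxd4l1.2.L*, so only a rise could be called. *foxd3.S*, at 0.438 and 0.388 CPM against no read in vehicle, was at least 7.82-fold higher and fell under the filter. So did *foxd3.L*, at 0.219 and 0.31 CPM against 0.0673 and 0.0382 CPM, a ratio of 4.69 (1.17 to 27.0), and *foxb1.S*, at 0.132 and 0.465 CPM against 0.0336 and 0 CPM, a ratio of 14.1 (1.95 to 617). The last copies under it were *foxb1.L*, at 0.395 and 0.775 against 0.168 and 0.115 CPM, and *foxd4l1.1.S*, at 0.307 and 0.62 against 0.135 and 0 CPM. None of these 5 was tested. The mesoderm list summed to 57.4 to 73.6 CPM with TSA and 2.09 to 2.71 CPM with vehicle, and its part was not tested.

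The effect of each inhibitor differed between the stages. For IBET, 3 of 6 members were called with a larger value at stage 13 than at stage 9, against 30.2% of genes called: *foxd3.L* (adjusted p = 0.00702), *foxd4l1.1.S* (0.0336) and *foxd4l1.2.L* (0.00789). All 6 had an unadjusted p under 0.05 with edgeR, as had 10234 of 24090 genes. The *foxd3.L* effect lay at a ratio of 84.5 at stage 13 beside none at stage 9. Vehicle held 1 read of *foxd3.L* at stage 13, so a fall could not be seen there. For the *foxd4l1* copies the stage 9 fall had no counterpart at stage 13, where vehicle was itself at 0.124 CPM or less. The *foxd4l1.1.S* call held in 2 of 8 fits that each left out a library, those without vehicle library b of stage 9 and IBET library b of stage 13, and reached an adjusted p of 0.862 without IBET library a of stage 13. That of *foxd4l1.2.L* was lost without IBET library b of stage 13 (0.106). For TSA all 7 members were called, against 47.7% of genes, each with a higher value at stage 13, with adjusted p between 0.000182 for *foxd4l1.1.L* and 0.0181 for *foxd3.S*. Among all genes, 5341 of 26144 were called in this direction. The TSA vehicle of stage 13 held from 0 to 8 reads of each member, so a fall could hardly be seen there. The direction was thus largely set by these low levels. The call of *foxd3.S* was lost without vehicle or TSA library a of stage 13 (0.0537 and 0.0536), and those of *foxd4l1.1.S* and *foxb1.S* without TSA library b of stage 13 (0.052 and 0.0674). These tests use the same vehicle libraries as the stage comparisons above.

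At stage 13 the effects of IBET and TSA differed for 1 of 3 members tested, where 26.4% of genes were called. This was *foxd4l1.1.L* (adjusted p = 0.0441), at a mean of 0.912 CPM with IBET and 4.9 CPM with TSA, and the call held in 3 of 8 fits that each left out a library. It was lost without vehicle library a of the IBET experiment (0.27), or vehicle library a or b (0.137 and 0.0548) or TSA library a or b (0.0854 and 0.0861) of the TSA experiment.

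**Figure D2:**
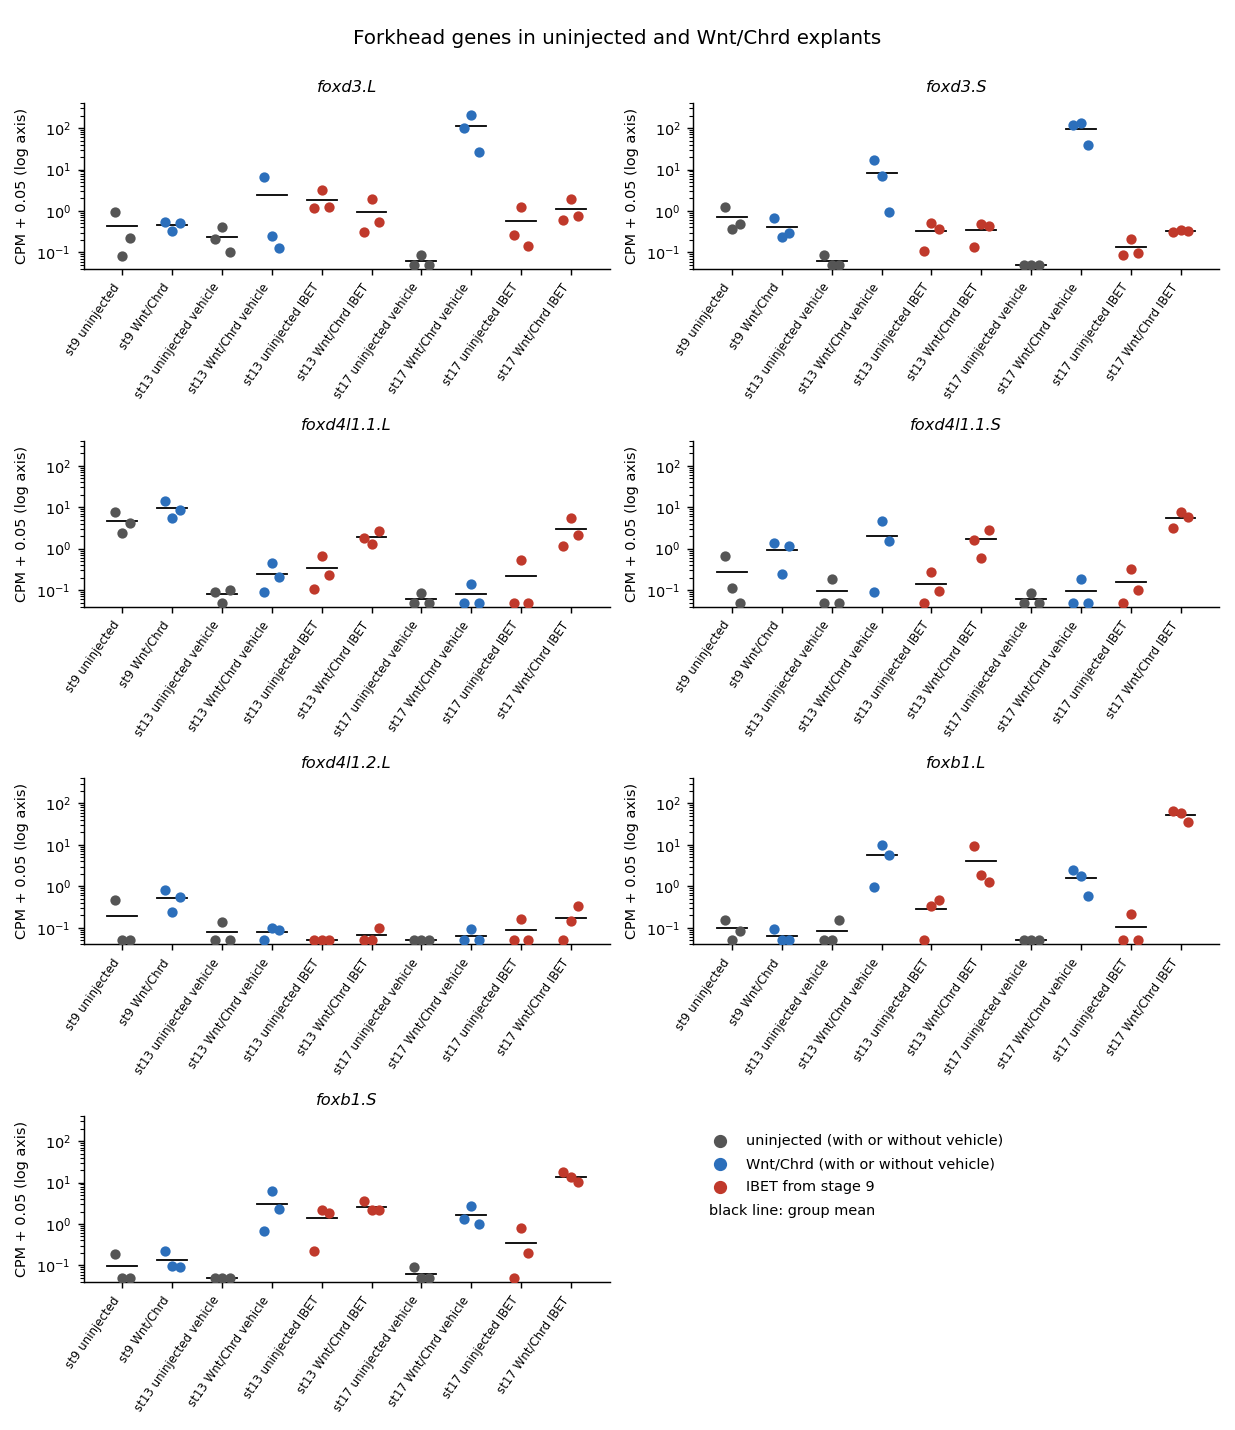
Levels of the 7 forkhead genes in uninjected and Wnt/Chrd explants, in CPM plus 0.05 on a log axis, 1 panel a gene. Each point is a library and black lines mark group means, with uninjected explants in grey, Wnt/Chrd in blue and IBET in red. *foxd3* rises in Wnt/Chrd explants with vehicle and is below 2 CPM with IBET at stage 17, where *foxd4l1.1* and *foxb1* are higher.

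In the second experiment, Wnt/Chrd gave no call among 5 members tested at stage 9, before inhibitor, where 0.0244% of genes were called by edgeR. No member had an unadjusted p under 0.05 and DESeq2 called none. *foxd4l1.1.L* was at 14, 5.35 and 8.6 CPM against 7.51, 2.31 and 4.17 CPM in uninjected libraries, and the groups overlap (log2 fold change 1.01, SE 0.53, adjusted p = 1.0). Libraries of the same letter deviate together in this experiment. With the letter as a block, each Wnt/Chrd library is set against the uninjected library of its letter, and *foxd4l1.1.L* was called higher (log2 fold change 1.03, adjusted p = 0.000359), where 2.27% of genes were called. In each of the 3 pairs the injected library held more of it than the uninjected one.

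At stage 13 with vehicle, 3 of 3 members tested were higher in Wnt/Chrd explants, where 12% of genes were called and 910 of 20691 were called higher. Uninjected libraries held at most 2 reads in all of each of the 3. These members passed the filter through the Wnt/Chrd libraries and could only be called higher. *foxd3.S* stood at 17.1, 7.0 and 0.905 CPM against 0.0386, 0 and 0 CPM, 572-fold higher (102 to 22625, adjusted p = 0.0165). *foxb1.L* stood at 0.887, 9.88 and 5.75 CPM against 0, 0 and 0.106 CPM, 173-fold higher (47.6 to 1434, adjusted p = 0.0185). *foxb1.S* stood at 0.617, 6.35 and 2.24 CPM against no read, at least 63.0-fold higher (adjusted p = 0.0309). The groups do not overlap for any of them. The calls turn on the choice of libraries: that of *foxd3.S* was lost without uninjected vehicle library a, b or c (adjusted p = 0.092, 0.061 and 0.075), and those of *foxb1.L* and *foxb1.S* each held only without Wnt/Chrd vehicle library a, of 6 fits that left out a library (up to 0.077 and 0.0801 in the others).

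One library of this group stood apart. Wnt/Chrd vehicle library a held the most *foxd3* (6.67 CPM of *foxd3.L* beside 0.199 and 0.0787 in b and c) and the least *foxb1* and *foxd4l1.1.S* (0.0386 CPM beside 4.52 and 1.46). It also held more of the neural crest gene *snai2.L* (109 CPM beside 24.7 and 33.7) and less of the neural progenitor gene *sox2.L* (3.2 CPM beside 33.4 and 37.1). These are single genes. Summed marker lists in the libraries of this group ran from 604 to 917 CPM for neural crest and from 214 to 1101 CPM for neural plate. The epidermal list ran from 3401 to 15454 CPM.

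At stage 17 with vehicle, 4 of 4 members tested were higher in Wnt/Chrd explants, where 41.2% of genes were called, and all 4 were still called when each library was left out in turn. Of all genes tested, 4084 of 21597 were called higher. Uninjected libraries held at most 1 read in all of each of the 4. These members passed the filter through the Wnt/Chrd libraries and could only be called higher. *foxd3.L* stood at 102, 206 and 26.7 CPM against 0, 0.0366 and 0 CPM, 8202-fold higher (1472 to 324004, adjusted p = 0.000241). *foxd3.S* stood at 116, 129 and 38.3 CPM against no read, at least 2369-fold higher (adjusted p = 0.000363). *foxd3* was thus all but absent from uninjected explants and high in every injected one. *foxb1.L* was at 2.45, 1.71 and 0.545 CPM against no read, at least 40.2-fold higher (adjusted p = 0.005), and *foxb1.S* at 1.3, 2.68 and 0.922 CPM against 0.0391, 0 and 0 CPM, 120-fold higher (21.1 to 4767, adjusted p = 0.00162). *foxd4l1.1.L*, with 0, 0.0879 and 0 CPM, stood at the floor in both. The neural crest and plate border list, of which 28 copies were tested, had 26 higher and 1 lower, where 41.2% of genes were called, with a median log2 fold change of 6.39 against 0.01 over all genes. Among these was *twist1.S*, a crest transcription factor, from 0.013 to 101 CPM on average (adjusted p = 1.29e-05).

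By stage 17, IBET from stage 9 had lowered *foxd3* and raised *foxb1* in Wnt/Chrd explants. In Wnt/Chrd explants *foxd3.L* stood at 0.57, 1.87 and 0.702 CPM with IBET against 102, 206 and 26.7 CPM with vehicle (log2 fold change -6.7, SE 0.87, adjusted p = 0.00064). *foxd3.S* stood at 0.263, 0.295 and 0.281 CPM against 116, 129 and 38.3 CPM (log2 fold change -8.33, SE 0.6, adjusted p = 6.28e-05). No IBET library came within the range of vehicle for either copy. The neural genes went the other way. *foxb1.L* stood at 64.6, 60.0 and 35.8 CPM against 2.45, 1.71 and 0.545 CPM (log2 fold change 5.11, SE 0.52, adjusted p = 0.000238). *foxb1.S* stood at 17.7, 13.5 and 10.1 CPM against 1.3, 2.68 and 0.922 CPM (log2 fold change 3.12, SE 0.45, adjusted p = 0.000999). Both copies of this posterior neural gene were higher in every IBET library than in any vehicle library.

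*foxd4l1.1*, near 0 in all vehicle libraries of stage 17, was present with IBET. *foxd4l1.1.L* was at 1.1, 5.41 and 2.06 CPM against 0, 0.0879 and 0 CPM, 103-fold higher (28.1 to 858, adjusted p = 0.00187). *foxd4l1.1.S* was at 3.07, 7.43 and 5.66 CPM against 0, 0.132 and 0 CPM, 131-fold higher (44.6 to 640, adjusted p = 0.000659). *foxd4l1.2.L* did not pass the filter and was at most 0.281 CPM in every stage 13 and stage 17 library of this experiment. So 6 of 6 members tested were called, 4 higher and 2 lower, where 50.1% of genes were called, and each call held with any 1 library left out. Vehicle held 2 reads of *foxd4l1.1.L* and 3 of *foxd4l1.1.S*, which passed the filter through IBET libraries and could only be called higher. Summed over copies, *foxd3* averaged 206 ± 135 CPM with vehicle and 1.33 ± 0.729 with IBET, and *foxb1* 3.2 ± 1.54 and 67.2 ± 19.0 CPM (SD, n = 3).

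Marker lists moved in the same libraries. The 10 neural crest marker copies summed to 2021 to 2416 CPM with vehicle and 261 to 460 CPM with IBET, and the 9 neural plate marker copies to 138 to 453 and 1925 to 2896 CPM. How far the members follow the share of such cells was not tested. The injected messages differed as well: their 4 copies summed to 339 to 839 CPM with vehicle and 1568 to 4405 CPM with IBET. At stage 13 these ranges overlapped, at 912 to 5725 and 2248 to 8390 CPM. The part of this difference in the results was not tested.

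At stage 13 IBET in Wnt/Chrd explants gave 2 calls among 6 members tested, where 15.3% of genes were called. *foxd4l1.1.L* was higher, at 1.71, 1.27 and 2.61 CPM against 0.0386, 0.397 and 0.157 CPM (log2 fold change 3.2, SE 0.79, adjusted p = 0.0318). *foxd3.S* was lower, at 0.0876, 0.441 and 0.387 CPM against 17.1, 7.0 and 0.905 CPM (log2 fold change -4.89, SE 1.11, adjusted p = 0.0249). The groups do not overlap for either gene. Vehicle held 13 reads of *foxd4l1.1.L* in all, so it passed the filter through the IBET libraries and a fall could hardly be called. With the letter as a block, where 30.4% of genes were called, *foxd3.S* just missed the threshold (log2 fold change -4.14, adjusted p = 0.0518).

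Both calls turn on single libraries. That of *foxd3.S* was lost without Wnt/Chrd vehicle library a (adjusted p = 0.053) or IBET library a, b or c (0.052, 0.083 and 0.095). That of *foxd4l1.1.L* was lost without vehicle library a or c (0.056 and 0.092) or IBET library b or c (0.084 and 0.13). *foxb1.L*, at 9.16, 1.82 and 1.21 CPM against 0.887, 9.88 and 5.75 CPM, and *foxd3.L*, at 0.263, 1.87 and 0.484 CPM against 6.67, 0.199 and 0.0787 CPM, overlap between the groups (log2 fold change -0.39, SE 0.98 and -1.57, SE 1.45, adjusted p = 0.791 and 0.449), and that of *foxd3.L* turned to 2.6 without vehicle library a. The *foxb1* difference seen at stage 17 was thus not seen at stage 13 at this spread.

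In uninjected explants IBET from stage 9 also gave *foxd3.L* a higher level at stage 13, at 1.1, 3.12 and 1.2 CPM against 0.155, 0.355 and 0.0531 CPM (log2 fold change 3.04, SE 0.74, adjusted p = 0.0103). It was the only member tested there, and the call held with any library left out. Of all genes tested 48.1% were called, with 4871 of 21278 called higher. Vehicle held 13 reads of *foxd3.L* in all, so it passed the filter through the IBET libraries and a fall could hardly be called. Marker lists moved in the same libraries: neural plate copies summed to 2013 to 2548 CPM against 76.6 to 139 CPM with vehicle, epidermal copies to 754 to 2090 against 12408 to 21600 CPM, and neural crest copies to 31.1 to 72.3 against 10.4 to 22.9 CPM. Their part in the result was not tested. *foxb1.S*, with 0.174, 2.1 and 1.75 CPM against no read, was at least 30.9-fold higher and did not pass the filter. At stage 17 no member passed the filter in uninjected explants, so no test by edgeR or DESeq2 was made on the filtered genes, of which 47.8% were called. There *foxd3.L* was at 0.214, 1.21 and 0.0964 CPM with IBET against 0, 0.0366 and 0 CPM, a ratio of 33.5 (5.57 to 1366). IBET library b held 22 of the 30 reads, and without it the ratio was 12.2 (1.64 to 544). That library had the lowest share of reads in genes (54.35%) and the highest share placed at more than 1 site (23.55%) of all libraries.

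The IBET effect on *foxd3* differed between uninjected and Wnt/Chrd explants at stage 17 for both copies, of which neither was tested in uninjected explants alone (adjusted p = 0.000905 for *foxd3.L* and 0.00159 for *foxd3.S*). These were 2 of 6 members tested, against 12.9% of genes, and each call held in 12 of 12 fits that left out a library. Uninjected vehicle held 1 read of *foxd3.L* and 0 of *foxd3.S* at stage 17, and 1 of *foxd3.S* at stage 13. A fall with IBET could thus not be seen in uninjected explants, and the called differences largely restate the fall in Wnt/Chrd explants. At stage 13 the difference was called for 1 of 6, *foxd3.S* (adjusted p = 0.027), against 2.24% of genes. That call held in 4 of 12 such fits, which left out a Wnt/Chrd vehicle library or uninjected IBET library a, and the adjusted p reached 0.0807 without uninjected vehicle library a. With IBET present, the levels of *foxd3.L* in the 2 kinds of explant overlapped at stage 17, at 0.57 to 1.87 CPM in Wnt/Chrd and 0.0964 to 1.21 CPM in uninjected libraries. Those of *foxd3.S* did not overlap, at 0.263 to 0.295 and 0.0356 to 0.165 CPM, from 18 and 5 reads in all.

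Injection itself was then compared among IBET-treated explants. At stage 13 none of 5 members tested was called with edgeR, where 0.062% of genes were, though 3 had an unadjusted p under 0.05 and DESeq2 called 2 (*foxd4l1.1.S*, adjusted p = 0.0145, and *foxb1.L*, 0.00688). *foxd4l1.1.S* was at 1.58, 0.551 and 2.76 CPM in Wnt/Chrd against 0, 0.227 and 0.0461 CPM in uninjected explants (log2 fold change 4.19, SE 1.0, adjusted p = 0.679), and *foxd4l1.1.L* at 1.71, 1.27 and 2.61 against 0.0579, 0.625 and 0.184 CPM (2.78, SE 0.76, adjusted p = 0.968). *foxb1.L* was at 9.16, 1.82 and 1.21 CPM against 0, 0.284 and 0.415 CPM (4.25, SE 1.14, adjusted p = 0.946). The groups do not overlap for any of the 3. At stage 17, 1 of 5 was called, where 0.225% of genes were. This was *foxb1.L*, at 64.6, 60.0 and 35.8 CPM against 0, 0.165 and 0 CPM, 1197-fold higher (409 to 5809, adjusted p = 0.00335), a call lost without uninjected IBET library c (0.058). Uninjected IBET libraries held 3 reads of it in all. It thus passed the filter through the Wnt/Chrd libraries and could only be called higher, as were 44 of 20869 genes. With the letter as a block, where 0.949% of genes were called, *foxd4l1.1.S* (log2 fold change 5.77, adjusted p = 0.0153, in place of 5.69 and 0.0923) and *foxb1.S* (5.73, adjusted p = 0.0347, in place of 5.56 and 0.121) were called too, as they were without uninjected IBET library b (0.0176 and 0.0116). At stage 17 with IBET, both copies of *foxb1* and *foxd4l1.1* were thus higher in every injected library than in any uninjected one. The main test called only *foxb1.L*. Uninjected libraries held at most 0.165 CPM of *foxb1.L*, 0.771 of *foxb1.S*, 0.496 of *foxd4l1.1.L* and 0.276 of *foxd4l1.1.S*. At stage 13 with IBET, *foxb1.S* overlapped, at 2.08 to 3.46 CPM in injected and 0.174 to 2.1 CPM in uninjected libraries.

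**Figure D3:**
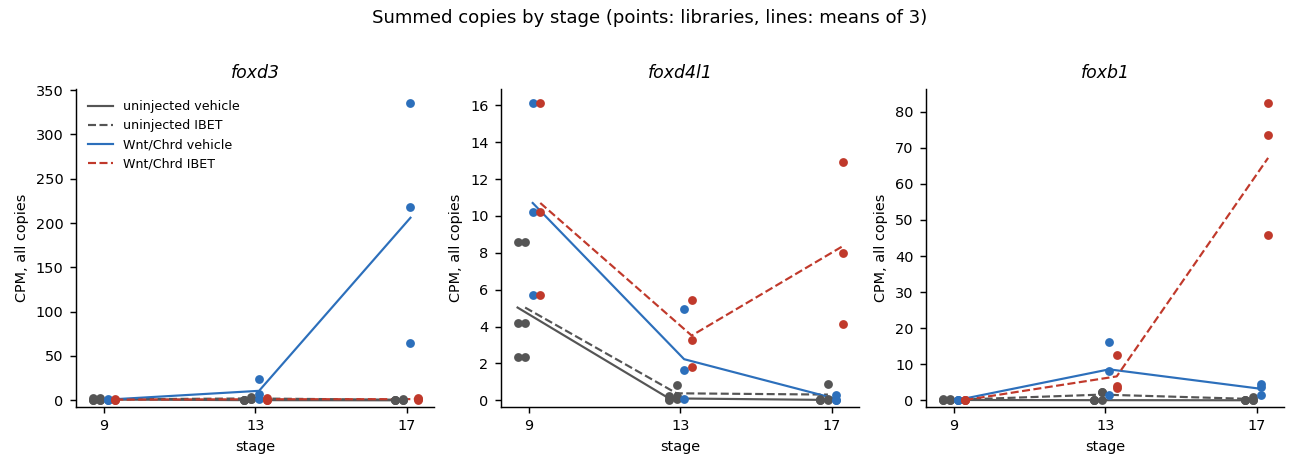
Group means of the summed copies of *foxd3*, *foxd4l1* and *foxb1* against stage, in CPM on a linear axis, with each library as a point. Lines join stages 9, 13 and 17 for uninjected explants (grey) and for Wnt/Chrd explants with vehicle (blue) or IBET (red), dashed where IBET was given, and the stage 9 points of the IBET lines are the same untreated libraries as those of the vehicle lines. *foxd3* climbs to 206 CPM in Wnt/Chrd explants with vehicle, and *foxb1* to 67.2 CPM in those with IBET.

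Over time in Wnt/Chrd explants with vehicle, 4 of 6 members tested changed between stages 9 and 13, where 62.5% of genes were called. Of 21237 genes tested, 6549 were called higher and 6733 lower. *foxd3.S* rose from 0.626, 0.19 and 0.249 CPM to 17.1, 7.0 and 0.905 CPM (log2 fold change 5.4, SE 1.15, adjusted p = 0.00542). *foxb1.L* rose from 0.0417, 0 and 0 CPM to 0.887, 9.88 and 5.75 CPM, 356-fold (63.5 to 14102, adjusted p = 0.00111), and *foxb1.S* rose too (5.85, SE 1.08, adjusted p = 0.00281). *foxd4l1.1.L* fell from 14, 5.35 and 8.6 to 0.0386, 0.397 and 0.157 CPM (log2 fold change -4.75, SE 0.8, adjusted p = 0.00188). Stage 9 held 25 reads of *foxd3.S*, 1 of *foxb1.L* and 6 of *foxb1.S* in all. These copies passed the filter through stage 13, so a fall could hardly be called. *foxd4l1.1.L*, with 13 reads in all at stage 13, passed it through stage 9, so a rise could hardly be called. *foxd4l1.1.S*, from 1.33, 0.19 and 1.08 to 0.0386, 4.52 and 1.46 CPM, overlapped between the stages (log2 fold change 1.99, adjusted p = 0.213, and 0.0382 without vehicle library a of stage 13). *foxd3.L*, from 0.284 to 0.501 CPM at stage 9 and from 0.0787 to 6.67 CPM at stage 13, was not called (3.38, SE 1.54, adjusted p = 0.0928; 0.0441 without vehicle library c of stage 13), and its fold change turned to -0.79 without vehicle library a.

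Between stages 13 and 17 none of 4 members tested was called with edgeR, where 13.7% of genes were. The unadjusted p was under 0.05 for 2 of them, and DESeq2 called 2. *foxd3.L* went from 6.67, 0.199 and 0.0787 to 102, 206 and 26.7 CPM, with no overlap (log2 fold change 5.29, SE 1.62, adjusted p = 0.0685), and *foxd3.S* from 17.1, 7.0 and 0.905 to 116, 129 and 38.3 CPM (3.24, SE 1.0, adjusted p = 0.0696). With the letter as a block, where 29.9% of genes were called, both were called (6.42, adjusted p = 0.0248 and 3.8, adjusted p = 0.0152). Without Wnt/Chrd vehicle library a of stage 13 the adjusted p was 0.0046 and 0.018, and that of *foxb1.L* was 0.022. With all libraries *foxb1.L*, from 0.887, 9.88 and 5.75 to 2.45, 1.71 and 0.545 CPM, overlapped between the stages (log2 fold change -2.0, SE 0.89, adjusted p = 0.158).

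The share of a gene's reads from each copy varied between groups. Of the reads of *foxd4l1.1*, the .L copy took 64.2 to 72.0% in the 4 vehicle libraries of stage 9 from the first experiment. It took 95.5 and 91.7% with IBET and 89.9 and 92.1% with TSA, and the 95% Wilson intervals of these libraries (the lowest from 78.2 to 97.1%) do not meet those of vehicle (the highest from 68.8 to 75.0%). Such intervals cover the counting of reads within a library and not the spread between libraries. In stage 9 explants of the second experiment the .L copy took 88.8 to 100.0%. By stage 13 in Wnt/Chrd explants with vehicle it took 8.08 and 9.76% in libraries b and c, and with IBET 52.0, 69.7 and 48.6%. At stage 17 with IBET it took 26.3, 42.1 and 26.7%. The .L copy thus held the greater share in every stage 9 library, and the .S copy in every stage 17 library of Wnt/Chrd explants with IBET.

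For *foxd3* the .L copy took 28.0, 2.76 and 8.0% of reads in stage 13 Wnt/Chrd explants with vehicle, and 95.0, 87.3 and 78.8% in uninjected explants with IBET at the same stage. It took 46.8, 61.5 and 41.0% at stage 17 in Wnt/Chrd explants with vehicle. The *foxd3* reads of IBET-treated explants at stage 13 were thus mostly .L, and those of Wnt/Chrd explants with vehicle mostly .S. For *foxb1* the .L copy took 78.5, 81.7 and 78.0% in stage 17 Wnt/Chrd explants with IBET and 65.4, 39.0 and 37.1% with vehicle. These shares are given where a library held at least 20 reads of the pair, and no test was made on them.

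**Figure D4:**
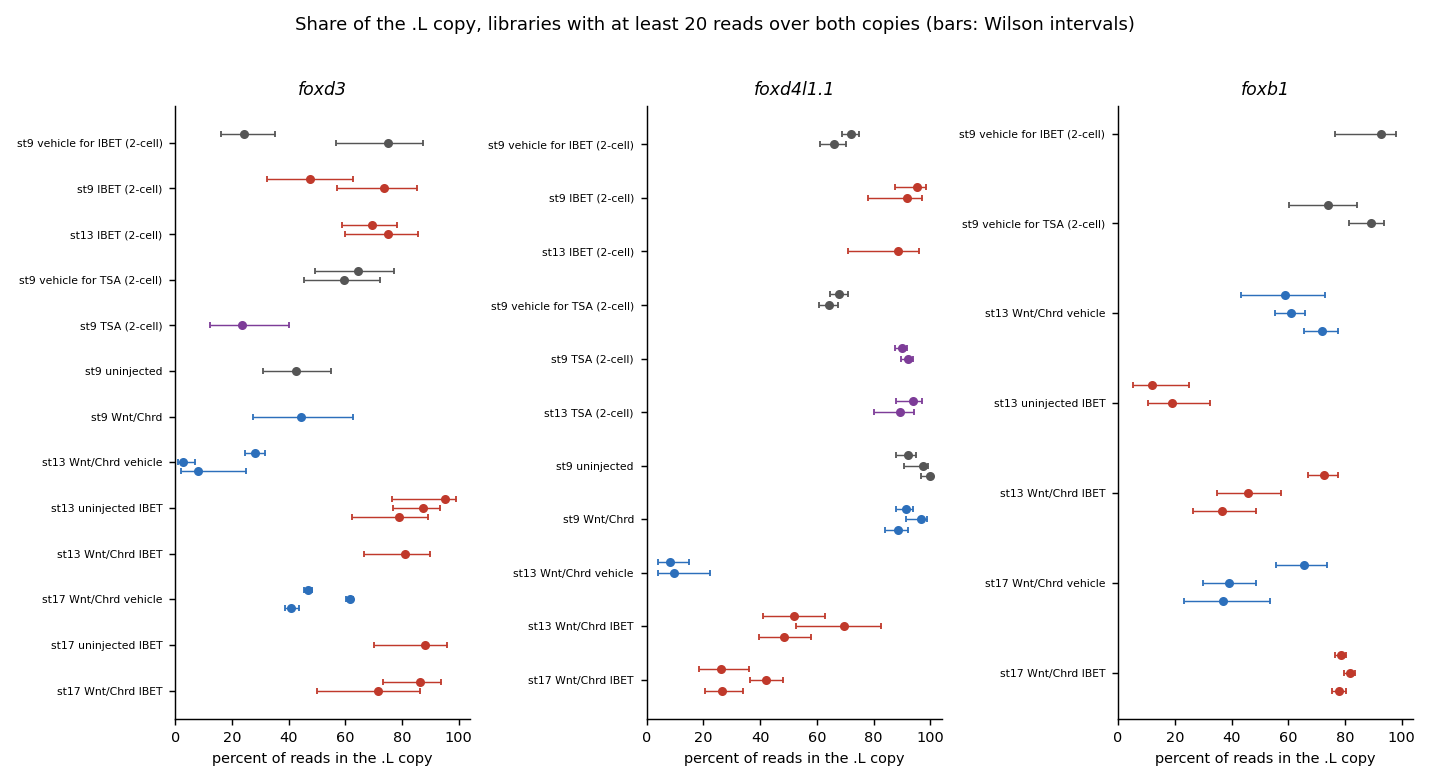
Percentage of the reads of *foxd3*, *foxd4l1.1* and *foxb1* that came from the .L copy, by group, for libraries with at least 20 reads of the pair. Points are libraries and bars are 95% Wilson intervals. For *foxd4l1.1* the stage 9 vehicle libraries of the first experiment sit between 64.2 and 72.0%, and the stage 17 Wnt/Chrd libraries with IBET between 26.3 and 42.1%.

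*foxd4l1.1.L* and *foxd4l1.2.L* lie on chromosome 1L with 1 annotated gene between them in RefSeq's annotation, and both were high at stage 9 with vehicle. Their values part under the inhibitors: at stage 9 with TSA, *foxd4l1.1.L* had 37.2 and 26.2 CPM and *foxd4l1.2.L* 4.46 and 2.96 CPM, against vehicle levels of 30.3 and 26.8 and of 11.7 and 10.5 CPM. In the stage 17 Wnt/Chrd explants with IBET, *foxd4l1.2.L* was at 0.281 CPM or less.

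The other forkhead genes, 78 copies, give the frame for these changes. At stage 17 in Wnt/Chrd explants, IBET raised 10 and lowered 2 of 37 tested, with a median log2 fold change of 0.49 against -0.01 over all genes, of which 50.1% were called. The raised ones included *foxp4.S* (2.81, SE 0.29, adjusted p = 0.000235) and *foxn3.S* (2.58, SE 0.33, adjusted p = 0.000626). Wnt/Chrd with vehicle at this stage raised 4 and lowered 19 of 46 tested (median -1.29), where 41.2% of genes were called. Among the lowered were *foxj1.S*, which drives the formation of motile cilia, from 211 to 1.07 CPM, and *foxi1.L*, an ionocyte regulator of the epidermis, from 161 to 0.41 CPM. At stage 9, IBET from the 2-cell stage lowered 3 of 42, *foxi1.L*, *foxi4.1.L* and *foxj1.L*, and raised none, where 2.37% of genes were called. TSA raised 4 and lowered 3 of 51, where 2.02% of genes were called, with *foxa4.L*, a gene of the organizer and endoderm, from 1.67 to 17.3 CPM (log2 fold change 3.34, SE 0.22, adjusted p = 0.0104).

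Genes of the neural ectoderm and of the crest moved in opposite ways with IBET in the stage 17 Wnt/Chrd explants. Of 31 neural ectoderm copies 20 rose and 2 fell (median log2 fold change 1.7), where again 50.1% of all genes were called. *gmnn.S*, the geminin gene, averaged 578 CPM after IBET, where vehicle libraries averaged 54.1 CPM (3.46, SE 0.23, adjusted p = 5.24e-05), and *irx3.L*, of the posterior neural plate, 105 and 8.45 CPM (3.68, SE 0.31, adjusted p = 0.00011). Of 28 neural crest and plate border copies none rose and 22 fell (median -3.23), with *snai2.L* averaging 0.778 and 664 CPM (-9.7, SE 0.53, adjusted p = 3.62e-05). The lists were put together with results of these libraries known, so their counts are a description.

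The genes most like the members over the 18 group means of log2(CPM + 1) were searched among 20078 genes that reached 5 CPM in a group. For *foxd3.L* they were *lmx1a.L* (Pearson r = 0.952), *gdnf.L* (0.95), *ppp1r13l.S* (0.948), *wnt10a.S* (0.944) and *bmp5.L* (0.944), and its homeolog *foxd3.S* had 0.932. For *foxb1.L* they included *irx3.L* (0.88), *zeb2.S* (0.874), *irx3.S* (0.839) and *hoxd1.S* (0.83), below its homeolog *foxb1.S* at 0.929. For *foxd4l1.1.L* the named genes were *stc1.L* (0.925) and *flrt1.S* (0.921), beside 3 predicted genes, while *foxd4l1.1.S* had 0.761. *foxd4l1.1* thus had the loosest tie between its copies of the 3 pairs. Many of the groups share a stage or an experiment, and these values are a description over 18 points.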

How the data were processed

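Total RNA of the explants was sequenced from a directional library kit. Per the labels and the study's methods, the authors trimmed reads with fastp 0.23.2, aligned them to the *X. laevis* genome 9.2 with STAR 2.6.0 and counted them with HTSeq 1.99.2. The versions come from the submitters' processing notes. The deposited files hold raw counts per gene, with 46 columns used and 0 left unmatched. Tables of the authors' DESeq2 comparisons (log2 fold changes and p-values) were not used. Rows of reads outside genes were left out of library totals, and 54.35 to 82.81% of reads fell in genes. No 2 libraries of a group agreed within sampling noise (lowest chi-square 8.95 per degree of freedom over 38 pairs).

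Counts were fitted with edgeR 4.0.16 in R 4.3.3: filterByExpr (minimum count 10, minimum total 15), TMM scaling and the quasi-likelihood test with Benjamini-Hochberg adjustment over all genes passing, on the groups compared only. Standard errors were worked back from the F statistic. There were 18 comparisons of 2 groups and 6 tests of a difference between effects. The alternatives were RLE scaling, library totals, no filter, DESeq2 1.42.0, a replicate block and leaving out each library. On simulated counts at IBET stage 9 from the 2-cell stage, 96% of 4-fold changes were recovered among 20833 genes, and at IBET stage 17 in Wnt/Chrd 92% among 20881. The changed genes were drawn above a minimum level in vehicle that most members did not reach. The simulated spread was taken from vehicle libraries alone. These rates therefore do not apply to members at low levels.

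The column letters served as pairing in the replicate block alternative only, and the main tests used the groups alone. In the experiment with 3 libraries a group, same-letter libraries correlated in their deviations from the group means in every pair (r from 0.142 to 0.935). The letters were therefore read as pairs there, from the data and not the labels. The main p-values do not take this pairing into account. With 2 libraries a group (r from 0.15 to 0.822) they were not read as pairs, because 3 libraries a group were required. At stage 9 that r was 0.822 for IBET and 0.809 for TSA, and the block was run as an alternative.

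The members, and the lists of genes and markers, were chosen with earlier results of these data known. All 7 members are named. Up to 4 genes with the smallest adjusted p could be named of a list in a comparison, and the 5 genes most like the higher copy of each gene. Of these, 1 is not reported here. Names matched RefSeq for 7 of 7. Sequences were not used here.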

Additional observations from a re-analysis of the deposited data

Results flagged for a closer look

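These are the effects that differed between groups by a test of the difference itself in edgeR, with its adjusted p over all genes. Between stages 13 and 9, the IBET effect differed for *foxd3.L* (0.00702), *foxd4l1.1.S* (0.0336) and *foxd4l1.2.L* (0.00789). The TSA effect differed for *foxd3.L* (0.00824), *foxd3.S* (0.0181), *foxd4l1.1.L* (0.000182), *foxd4l1.1.S* (0.00991), *foxd4l1.2.L* (0.000264), *foxb1.L* (0.00253) and *foxb1.S* (0.0125). Vehicle at stage 13 held 4 reads or fewer of each of these genes over both libraries, except *foxb1.L* in the TSA experiment with 8, which limits how far a lower level could be seen there. The effects of IBET and TSA at stage 13 differed for *foxd4l1.1.L* (0.0441). The IBET effect differed between Wnt/Chrd and uninjected explants for *foxd3.S* at stage 13 (0.027), and for *foxd3.L* (0.000905) and *foxd3.S* (0.00159) at stage 17. In each case uninjected vehicle held at most 1 read of the copy in all, so a fall with IBET could not be seen there.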

How the results depend on the processing

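No member that was called changed direction under any alternative. Of 110 member tests, 109 kept their side of the threshold under RLE scaling and 109 under library totals. With no filter 15 passed. Among the tests to which DESeq2 gave an adjusted p, 84 kept their side, 17 passed and 2 ceased to pass. DESeq2 gave none for the rest of the 110, and these count as not called in the numbers of members below. Library totals moved the median log2 fold change of all genes from 0.12 to 0.71 for TSA at stage 13, where genes higher went from 9115 to 13044 and lower from 8840 to 5881, and to between -0.65 and -0.94 for stage 13 against 9.

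The number of members called moved as follows where it moved by over 1.5 times or from 0. With the replicate block it was 4 for IBET and 5 for TSA at stage 9 from the 2-cell stage, 1 for Wnt/Chrd at stage 9, 3 for Wnt/Chrd with IBET at stage 17, 1 for IBET in Wnt/Chrd at stage 13, 2 between stages 17 and 13, 5 for the IBET effect between stages, and 4 at stage 9 and 2 at stage 13 for IBET against TSA. With no filter it was 2 for IBET at stage 13, 2 for TSA at stage 9, 1 and 3 for Wnt/Chrd with IBET at stages 13 and 17, 2 and 1 for IBET in uninjected explants at stages 13 and 17, 2 between stages 13 and 9 uninjected, 1 between stages 17 and 13, 6 for the IBET effect between stages, 3 and 2 for IBET against TSA at stages 9 and 13, and 2 for the stage 13 Wnt/Chrd difference. With DESeq2 it was 3 for TSA at stage 9, 2 and 4 for Wnt/Chrd with IBET at stages 13 and 17, 2 between stages 17 and 13, 5 for the IBET effect between stages, 3 for IBET against TSA at stage 9 and 2 for the stage 13 Wnt/Chrd difference. RLE scaling gave 1 for IBET against TSA at stage 9. Smaller moves were to 3 for IBET at stage 9 under DESeq2 and with no filter, to 4 (DESeq2) and 6 (no filter) for stage 13 against 9 in the IBET vehicle, to 3 for TSA at stage 13 with no filter, to 5 for the TSA effect between stages under DESeq2 and to 4 for the IBET effect between stages under library totals.

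Leaving out each library in turn, the number called ran from 2 to 3 (IBET, stage 9), 1 to 2 (IBET, stage 13), 0 to 2 (TSA, stage 9), 1 to 3 (TSA, stage 13), 4 to 5 and 6 to 7 (stage 13 against 9, vehicles of IBET and TSA), 0 to 4 (Wnt/Chrd, stage 13 vehicle), 0 to 3 (Wnt/Chrd with IBET, stage 17), 1 to 2 (IBET uninjected, stage 13), 0 to 2 (IBET in Wnt/Chrd, stage 13), 1 to 2 and 4 to 5 (stage 13 against 9, uninjected and Wnt/Chrd), 0 to 4 (stage 17 against 13), 2 to 5 and 5 to 7 (IBET and TSA effects between stages), 0 to 2 (IBET against TSA at either stage) and 0 to 2 (stage 13 Wnt/Chrd difference). The counts did not move for Wnt/Chrd at stage 9 or stage 17 with vehicle, Wnt/Chrd with IBET at stage 13, IBET at stage 17 in either explant, or its stage 17 Wnt/Chrd difference. With 2 libraries a group the lone library left is assumed to vary like the others. Copies under the filter have few reads, and a level of 0 there reads only as under 3 reads over the group.

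Log2 fold changes of members that were not called turned sign in 4 fits with the replicate block and 24 that left out a library. With the block, IBET in Wnt/Chrd at stage 13 gave 0.45 for *foxd3.L*, 0.55 for *foxd4l1.1.S* and 0.11 for *foxb1.S*, and its difference from uninjected explants gave 0.08 for *foxd4l1.1.S*. Leaving out each library, IBET at stage 9 ran from -0.18 to 0.22 for *foxd3.L* and from -2.1 to 1.02 for *foxd3.S*, IBET at stage 13 from -1.76 to 2.1 for *foxd4l1.1.L*, and TSA at stage 9 from -1.47 to 0.35 for *foxd3.S* and from -0.15 to 0.36 for *foxd4l1.1.L*. *foxd3.L* ran from -0.38 to 1.99 for Wnt/Chrd at stage 9 and from -0.79 to 3.95 between stages 13 and 9 in Wnt/Chrd. IBET in Wnt/Chrd at stage 13 ran from -2.74 to 2.6 for *foxd3.L*, -0.85 to 1.08 for *foxd4l1.1.S*, -1.99 to 0.31 for *foxb1.L* and -0.7 to 0.8 for *foxb1.S*. IBET against TSA at stage 9 ran from -1.77 to 1.33 for *foxd3.S* and -4.13 to 1.56 for *foxb1.L*. The Wnt/Chrd difference ran from -0.2 to 1.56 for *foxd4l1.1.L* and -4.31 to 0.58 for *foxd4l1.1.S* at stage 13, and -2.62 to 1.29 for *foxb1.S* at stage 17.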
